A study of Mus musculus with 17 samples.

Results

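Mature microRNAs (miRs) of the mouse kidney were compared between ischemia reperfusion injury (IRI) and the uninjured, unoperated (naïve) kidney. All 9 samples of this comparison carried the dye Cy3, and they were all 8 IRI samples and the 1 naïve sample of a series of 17 samples. The series also holds 8 sham samples in Cy5, used here only to show where IRI differs from surgery without ischemia. Each sample was RNA of whole kidney pooled from 3 wild-type C57/BL6 mice aged 10 to 12 weeks. The sample labels give female mice and the study's methods male mice. The IRI mice had 30 minutes of warm ischemia and the sham mice an operation without it, and kidneys were taken on days 1, 3, 5 and 7 and then on days 10, 14, 21 and 30. The naïve mice had no surgery and therefore no day. The IRI pool of each day shared an array with the sham pool of that day, and the naïve pool was hybridised alone on an array of its own, so that array and group cannot be told apart. Because each day is 1 pool and naïve is 1 pool, the spread in every test is that between IRI days, and naïve was assumed to vary as much as a day does.

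miRs are short RNAs that pair with messenger RNAs and lower their translation and stability. Pairing rests mainly on the seed, bases 2 to 8 counted from the 5′ end, so that miRs with the same seed form families with overlapping targets. In the kidney, tubular epithelium carries miR-192, miR-194, the miR-30 family and the miR-200 family, while miR-21, miR-199a and miR-214 are known from injured and fibrotic kidneys and miR-155 and miR-146a from inflammation.

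The array targets of 69 of the 86 miRs tested equalled a mature sequence in RefSeq (build GRCm38.p6). The sequences below are those of miRs on which the comparison turned and of relatives that differ from them by few bases, with the seed in capitals.
miR-21: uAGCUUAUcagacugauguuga
miR-155: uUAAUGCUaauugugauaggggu
miR-26a: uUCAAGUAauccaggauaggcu
miR-26b: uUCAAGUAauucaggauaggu
miR-10a: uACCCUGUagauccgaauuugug
miR-10b: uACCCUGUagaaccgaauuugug
miR-27a: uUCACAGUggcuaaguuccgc
miR-27b: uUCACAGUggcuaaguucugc
miR-15a: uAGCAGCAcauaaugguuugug
miR-15b: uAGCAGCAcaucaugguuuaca
miR-16: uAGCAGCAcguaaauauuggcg
miR-22: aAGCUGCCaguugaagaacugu
let-7a: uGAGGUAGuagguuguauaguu
let-7b: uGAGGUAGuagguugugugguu
let-7c: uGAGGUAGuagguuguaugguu
let-7e: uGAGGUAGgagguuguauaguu
let-7f: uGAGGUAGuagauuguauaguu
let-7g: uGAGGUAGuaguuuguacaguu
miR-98: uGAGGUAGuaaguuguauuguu
miR-192: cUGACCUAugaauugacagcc
miR-194: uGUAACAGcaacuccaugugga
miR-146a: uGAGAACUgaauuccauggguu
miR-199a-3p: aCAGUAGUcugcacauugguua
In that build miR-21 lies at chr11:86584120-86584141 on the minus strand, miR-155 at chr16:84714143-84714165 on the plus strand, miR-26b at chr1:74394324-74394344 on the plus strand and miR-10a at chr11:96317186-96317208 on the plus strand. miR-15b lies at chr3:69009775-69009796 and miR-27a at chr8:84208727-84208747, both on the plus strand.

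The arrays carried 569 mature mouse miRs, each printed as 6 spots. The values below are the deposited processed intensities, on a linear scale, and a log2 ratio to naïve was taken after values under 200 were set to 200. The 483 miRs with a mean under 200 over the 9 samples were not tested, which left 86. Between 83 and 88 of the 569 miRs reached 200 on the IRI days and 76 in naïve, and 11 of the miRs tested were under 200 in naïve. The naïve array was dim. Its mean scanner signal over the empty spots was 208.7, against 1113.8 to 1411.5 on the IRI days. The deposited value was 7.9 times the scanner signal at the median miR in naïve (2.79 to 14.42 over miRs), and 0.41 to 0.70 times on the IRI days. In naïve the median of this factor was 9.78 for values over 1000 and 4.39 for values of 200 to 1000. On each IRI day these medians lay closer together (0.33 and 0.46 on day 14, the widest). The factor in naïve did not rise steadily with brightness. There let-7c, the brightest miR tested, was at 74203 from a scanner signal of 16544.5, and miR-191 at 7884 from 546.7. On the scanner scale 83 of the 86 miRs were dimmer in naïve than on every IRI day, among them 15 of the 17 that were lower in IRI after processing, so that for these 15 the direction depends on the scaling between samples. The deposited scaling was compared with others as alternatives.

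IRI differed from naïve in both directions. Of the 86 miRs, 19 were higher in IRI (22.1%) and 17 were lower (19.8%) at an adjusted p under 0.05 (limma, Benjamini-Hochberg), and all 36 had the same sign on all 8 days. From the scanner signals scaled to a common median, 58 of 114 miRs were called and 31.0% of those were higher, against 52.8% here, and the median log2 IRI/naïve was -0.41. A second rule asked for a difference of at least 2-fold on every day, and 9 miRs were above naïve by it (10.5%) and 13 below (15.1%). Without any threshold, 31 miRs were above naïve on all 8 days (36%) and 24 were below on all 8 (27.9%). The median log2 IRI/naïve over the 86 miRs was 0.26, from -3.80 to 3.71. The spread over the days (SD) had a median of 0.38 on the log2 scale, and the error between the spots of a miR (SE of the ratio) a median of 0.12. A single miR taken alone could not reach an exact permutation p below 0.11 with 1 sample against 8, so the limma calls take the single naïve pool to vary as the IRI days do.

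miR-21, which is induced in injured epithelium and fibroblasts, showed the largest difference above naïve. Its value was 2217 in naïve and in IRI 19453, 33009, 30524, 34893, 32101, 37621, 26089 and 23919 over the 8 days from day 1 to day 30. Every IRI day was above naïve, day 1 being the lowest and day 14 the highest. The mean log2 IRI/naïve was 3.71 (SE 0.35), a 13.1-fold difference with an adjusted p of 9.2e-05 (limma). Between spots the error of a day's ratio was 0.088 to 0.15, well under the range of 3.13 to 4.08 over the days. Sham kidneys held 2816 to 8829, with a median of 3965.5, so that all 8 sham samples lay above naïve and below all 8 IRI samples. The IRI/sham difference was 2.72 (SE 0.20) on the log2 scale, adjusted p 3.6e-06 (limma).

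miR-26b, a member of a seed family that is abundant in differentiated cells, was at 1733 in naïve and at 9198 to 16436 in IRI, with a median of 12813.5. Its mean log2 IRI/naïve was 2.84 (SE 0.31), a 7.18-fold difference (adjusted p 0.00017), and no IRI day came near naïve. Sham kidneys were as far from naïve, with a mean log2 sham/naïve of 2.56, and the IRI/sham difference of 0.28 (SE 0.15) did not pass the test (adjusted p 0.17). miR-10a, which is encoded within a Hox gene cluster and is typical of the adult kidney, was at 1183 in naïve and at 5847 to 9648 in IRI, with a median of 7271. The difference was 2.69 (SE 0.32, adjusted p 0.00023), and that of sham, against the same naïve pool, was 2.08. IRI exceeded sham by 0.60 (SE 0.19, adjusted p 0.026).

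miR-15a and miR-15b, which lower cell cycle and survival genes, were both higher in IRI. miR-15b was at 695 in naïve and at 2654 to 4706 in IRI, a log2 difference of 2.29 (SE 0.32, adjusted p 0.00078), and sham kidneys, at 519 to 1828, lay below IRI on both sides of naïve. IRI was above sham on all 8 arrays, by 1.45 (SE 0.19, adjusted p 0.00023). miR-15a was not above the empty spots on the naïve array, where its value was 173, and it was at 501 to 1912 in IRI, at least 5.04-fold higher with naïve set to the floor of 200 (adjusted p 0.0084). With a floor of 400 (log2 1.33, adjusted p 0.117) or median scaling of the scanner signals (1.61) the call of miR-15a was lost. miR-27a, from the miR-23a cluster, was at 451 in naïve and at 1530 to 2977 in IRI (log2 2.24, SE 0.35, adjusted p 0.00094). miR-30b, of the tubular miR-30 family, was at 1228 in naïve and at 3491 to 8362 in IRI (log2 2.20, SE 0.40, adjusted p 0.0016), and sham kidneys overlapped IRI at 2127 to 7362.

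miR-155, which is made by activated leukocytes, was the most variable of the 8 highest. It was at 279 in naïve and at 1905, 1125, 1887, 456, 806, 940, 655 and 1304 over the 8 IRI days in order, so that days 1 and 5 were highest and day 7 lowest. Its log2 difference was 1.87 (SE 0.68) with an adjusted p of 0.048, which no longer passed without day 1, 3, 5, 10, 14 or 30, with median scaling of the scanner signals (1.02, adjusted p 0.208) or with the G and C term (1.05, adjusted p 0.134). Sham kidneys held 138 to 616 and straddled naïve. IRI was above sham on all 8 arrays by 1.56 (SE 0.22, adjusted p 0.00042).

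At the other end, 8 miRs were at least 3.75-fold lower in IRI on average. miR-378, which is encoded in an intron of a metabolic coactivator gene, was at 4957 in naïve and at 540, 333, 513, 323, 658, 205, 243 and 259 over the IRI days in order. Its log2 difference was -3.80 (SE 0.58, adjusted p 0.00094), a 14.0-fold difference, and days 14 to 30 were the lowest. Sham kidneys were also low, at 327 to 2361, and IRI was below them by 0.80 on the log2 scale (-0.80, SE 0.24, adjusted p 0.024). On the scanner scale, however, miR-378 was at 565.4 in naïve and at 562.2 to 1097.0 in IRI.

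miR-705 was at 10700 in naïve and at 593 to 1869 in IRI (log2 -3.34, SE 0.52, adjusted p 0.00095), and sham kidneys covered the IRI range at 290 to 2787. miR-320 was at 9851 in naïve and at 957 to 2585 in IRI (log2 -2.85, SE 0.42, adjusted p 0.00094). miR-720, a sequence later recognised as a piece of a transfer RNA, was at 2386 in naïve and at 158 to 626 in IRI (log2 -2.61, SE 0.58, adjusted p 0.0057). With a term for G and C content the call of miR-720 was lost (-1.45, adjusted p 0.125), and miR-705 was at -1.66 and still passed. The IRI values of miR-705, miR-320 and miR-720 lay wholly below naïve. Of them only miR-720 passed the test against sham, at -1.08 (SE 0.32, adjusted p 0.023). The differences for miR-705 of -0.28 (SE 0.30) and for miR-320 of -0.56 (SE 0.21) did not pass, at adjusted p values of 0.49 and 0.057.

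miR-22, a broadly expressed miR, was at 1652 in naïve, 205 to 501 in IRI and 400 to 843 in sham, and IRI was the lower surgery on all 8 arrays. Its log2 IRI/naïve was -2.28 (SE 0.47, adjusted p 0.0041) and its log2 IRI/sham -0.70 (SE 0.16, adjusted p 0.0072). miR-574-5p was at 1399 in naïve, and its 119 to 534 in IRI lay within the 37 to 1110 of sham (log2 IRI/naïve -2.18, SE 0.50). Days 1 and 30 of miR-574-5p and day 14 of miR-720 were under the floor of 200, so those ratios are limits. miR-185 was at 2417 in naïve and at 338 to 880 in IRI (log2 -2.09, SE 0.48, adjusted p 0.0065), and miR-690 at 3340 and at 582 to 1651 (log2 -1.91, SE 0.54, adjusted p 0.019). The call of miR-690 was lost with median scaling of the scanner signals (-1.28, adjusted p 0.0719) and with all 17 samples in the fit (adjusted p 0.0741).

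**Figure D1:**
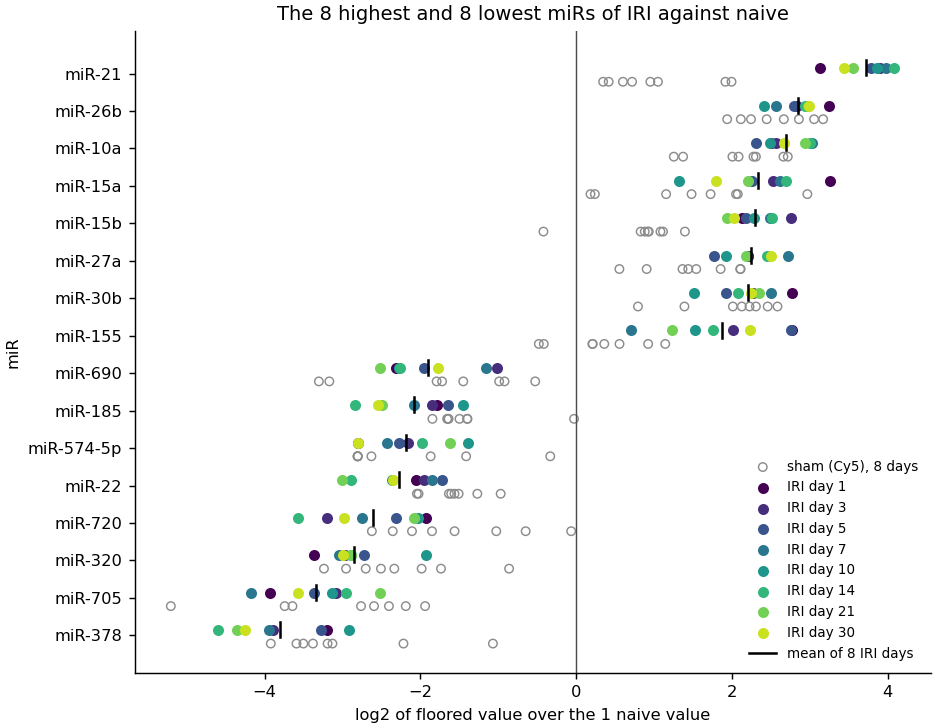
Log2 ratio to the single naïve pool (x axis) of the 8 highest and 8 lowest miRs of IRI against naïve. Filled points are the 8 IRI days, black bars their mean and open points the 8 sham samples. IRI points of miR-21 lie between 3.13 and 4.08, right of all sham points. Those of miR-26b overlap the sham points and those of miR-705 lie among them.

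The other 20 calls were smaller. The 11 higher ones ran from miR-26a at 0.65 to miR-10b at 1.77, and the 9 lower ones from miR-466f-3p at -1.86 to let-7a at -0.86. Among them, let-7g was steadiest over time apart from miR-26a. It was at 5487 in naïve and between 12669 and 15219 on the IRI days (log2 1.34, SE 0.22, adjusted p 0.0013), and its SD over the days was 0.095. Sham kidneys were as high, at 12632 to 16149 (mean log2 sham/naïve 1.42), with an IRI/sham difference of -0.08 (SE 0.11). The call of let-7g did not hold in the quantile-normalized scanner signals (0.37, adjusted p 0.17), after loess and quantile normalization (0.43) or with the G and C term (0.61). The least certain higher calls had adjusted p values of 0.036 for miR-26a and miR-20a, 0.039 for miR-27b, 0.044 for miR-30c and 0.048 for miR-126-3p.

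Markers of kidney epithelium moved in both directions. Of 11 listed miRs, 9 were tested, 4 of them higher than naïve (miR-10a, miR-10b, miR-30b and miR-30c) and 1 lower (miR-192), against 22.1% and 19.8% of all miRs. Their median log2 IRI/naïve was 0.74 against 0.26 over all miRs, and their median log2 sham/naïve, from the same naïve pool, was 1.06 against 0.10. miR-204 and miR-215, also listed, were at 84 or less in every IRI and naïve sample. miR-192, which is enriched in proximal tubule, was at 10442 in naïve and at 5893, 3192, 4548, 3301, 2810, 2159, 2899 and 1406 over the IRI days in order (log2 -1.79, SE 0.60, adjusted p 0.037). All 8 days were below naïve, day 1 least and day 30 most, and the call was lost without day 3, 7, 10, 14 or 21 and with median scaling of the scanner signals (-0.86, adjusted p 0.31). miR-194 has 2 genes, of which Mir194-2 lies beside the gene of miR-192. miR-194 was at 1340 in naïve and at 579 to 1655 in IRI, so that naïve lay within the IRI range (log2 -0.38, SE 0.59, adjusted p 0.65). Both were lower in IRI than in sham, by -0.95 (SE 0.21) and -0.84 (SE 0.19) on the log2 scale, each with an adjusted p of 0.0072. miR-30c was at 4409 in naïve and at 6296 to 10965 in IRI, and miR-10b at 2786 and at 7069 to 11770, without overlap. The call of miR-30c was lost without day 3, 7, 10, 14, 21 or 30, in the quantile-normalized scanner signals (0.43) and with the G and C term (0.62, adjusted p 0.175). In RNA from whole kidney, fewer cells of a type and less of a miR per cell cannot be told apart.

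None of the 4 tested members of the epithelial miR-200 family, which hold epithelial identity by repressing transcription factors of mesenchymal cells, passed against naïve, where 41.9% of all miRs tested did. Their log2 IRI/naïve was -0.23 to 0.49, and naïve lay within the IRI range of each, as for miR-200b at 5863 in naïve and 4618 to 10060 in IRI. miR-200a and miR-429 were lower in IRI than in sham, by -1.21 (SE 0.30, adjusted p 0.011) and -0.59 (SE 0.18, adjusted p 0.026).

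Among miRs of injury and fibroblasts, 4 of 7 were tested and only miR-21 was called against naïve, though all 4 were higher in IRI than in sham. Over all miRs, 22.1% were higher than naïve and 19.8% higher than sham. The paper already reports miR-21, miR-199a-3p and miR-214 as different between IRI and sham at every time analyzed. The count against sham is therefore not independent of these data. miR-199a-3p, which comes from 3 genes, Mir199a-2 beside that of miR-214 among them, and marks mesenchymal cells, was at 1686 in naïve and at 1437, 2641, 2699, 4141, 3549, 5987, 4791 and 7465 over the IRI days in order. Day 1 was below naïve and all later days were above it, and the mean log2 difference of 1.12 (SE 0.71) did not pass (adjusted p 0.23). Sham kidneys were at 500 to 1441, and the IRI/sham difference was 1.83 (SE 0.22, adjusted p 0.00012). miR-214 was at 1504 in naïve, 437 on IRI day 1 and 1759 to 3899 on the other 7 days (log2 0.42, SE 0.91, adjusted p 0.72). In sham kidneys miR-214 also ended high, from 412 on day 3 to 2404 on day 30. Sham was above IRI on day 1 (552 against 437) and on day 30 (2404 against 1872).

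Of 4 miRs of inflammatory feedback, 3 were tested and 1, miR-155, was called higher, against 22.1% of all miRs. miR-146a, which damps innate immune signalling, was at 629 in naïve and at 416, 637, 596, 908, 774, 2369, 2168 and 4449 over the IRI days in order. Days 14, 21 and 30 stood apart from naïve and the earlier days lay around it, so the mean log2 difference of 0.84 (SE 1.09) did not pass (adjusted p 0.58), while IRI exceeded sham by 1.39 (SE 0.36, adjusted p 0.012).

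Markers of other cells were followed beside these results, each against its own naïve value. Of 7 leukocyte miRs, 2 were tested and neither was called, against 41.9% of all miRs. miR-150, of mature lymphocytes, was at 120 in naïve and at 208 to 1142 in IRI, and miR-181a at 377 and at 229 to 683. The leukocyte list summed to 686 in naïve and to 676 to 2462 over the IRI days, with day 30 highest. Of its untested members, miR-142-3p and miR-142-5p were at 24 or less in all 9 samples, whereas miR-223 was at 56 in naïve and 32 to 253 in IRI, miR-342-3p at 44 and 40 to 324, and miR-181b at 53 and 46 to 193. The 3 erythroid miRs summed to 151 in naïve and to 139 to 1038 in IRI, with day 1 highest, and the 10 miRs of muscle, liver, brain and pancreatic islets to 365 and to 323 to 555. miR-126-3p, of endothelium, was higher in IRI at 5440 to 10719 against 4034 (log2 0.95, SE 0.34), a call lost without day 3, 7, 10, 14 or 21 and with the G and C term (0.79, adjusted p 0.0977). Of the smooth muscle pair, miR-143 was lower, at 1270 to 2085 against 3589 (log2 -1.23, SE 0.30, adjusted p 0.0092), a call lost with median scaling of the scanner signals (-0.35, adjusted p 0.29), and miR-145, at 1324 to 4741 against 3518, was not called. Sham kidneys were about as far from naïve, with a mean log2 sham/naïve of 0.89 for miR-126-3p and -1.01 for miR-143. Neither was called between the surgeries (IRI/sham 0.063, SE 0.15, and -0.22, SE 0.15). The part of these cells in the results was not tested.

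The miR-17 clusters, linked to proliferation, held 11 listed miRs, of which 4 were tested. Only miR-20a was called against naïve, 1 of 4 against 22.1% of all miRs, and the log2 IRI/naïve of the 4 was 0.67 to 1.18. It was at 122 in naïve and at 335 to 650 in IRI, at least 2.27-fold higher when naïve is set to the floor, but the call was lost with median scaling of the scanner signals (log2 0.14, adjusted p 0.77). All 4 were higher in IRI than in sham, against 19.8% of all miRs, and miR-20a is on the study's own list of differing miRs. miR-25, at 671 in naïve and 909 to 1557 in IRI, did not pass against naïve (log2 0.72, SE 0.32, adjusted p 0.10) and exceeded sham on all 8 arrays by 1.28 (SE 0.15, adjusted p 0.00012). miR-92a was at 737 in naïve and at 904 to 1577 in IRI (log2 0.67, SE 0.32, adjusted p 0.13). miR-210, induced by hypoxia, and miR-34a, induced by p53, were among 4 miRs of a list with no member tested, the highest of them at 318 over the IRI and naïve samples and miR-34a at 362 in sham.

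Of the 5 miRs of the miR-23a and miR-23b clusters, all tested, 4 were higher in IRI, against 22.1% of all miRs tested. The fifth, miR-24, was below naïve on all 8 days, at 1858 to 3794 against 4925, and did not pass (log2 -0.87, SE 0.38, adjusted p 0.094). miR-23a was at 3404 in naïve and at 6681 to 13241 in IRI (log2 1.34, SE 0.38, adjusted p 0.019), and miR-23b at 5003 and at 8000 to 14869 (log2 1.05, SE 0.34, adjusted p 0.033), a call lost in the quantile-normalized scanner signals (0.44). The call of miR-27b was lost without day 3, 7, 10, 14, 21 or 30 and with median centring (1.09, adjusted p 0.0689). Sham kidneys were as high, with a median of 7014 for miR-23a and 9638.5 for miR-23b, and neither differed between the surgeries (IRI/sham 0.18, SE 0.15, and -0.01, SE 0.14). miR-221 and miR-222, which restrain a cell cycle inhibitor, were not called (log2 IRI/naïve 0.96, SE 0.36, adjusted p 0.053, and -0.09).

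The size of the difference varied within families whose members differ by 1 or few bases, all measured against the same naïve value for each miR. The 9 let-7 miRs share 1 seed and ran from -1.39 for let-7b to 1.50 for miR-98. let-7b, let-7c and let-7a were lower in IRI and let-7g was higher, but let-7a had the other sign in the quantile-normalized scanner signals (0.17, with 0.18 from the median of the spots). let-7b lost its call there (-0.52 and -0.53) and after loess and quantile normalization (-0.69), and let-7c after the latter (-0.55, adjusted p 0.225). let-7c was at 74203 in naïve and at 24226 to 36965 in IRI (log2 -1.32, SE 0.29, adjusted p 0.0047), and let-7a at 64839 and at 29552 to 43822 (log2 -0.86, SE 0.27, adjusted p 0.031). With positions counted from 1 at the 5′ end of the sequences above, let-7a and let-7f differ by G12A, and the log2 IRI/naïve of let-7a minus that of let-7f was -0.72 to -0.66 over the 8 days. let-7a and let-7c differ by A19G, with 0.37 to 0.56 over the days, and let-7a and let-7e by U9G, with -1.82 to -0.98. miR-26a, whose small difference also changed sign in those signals (-0.14), and miR-26b differ by C11U and C21U and by 1 base of length, with -2.63 to -1.62. miR-10a and miR-10b differ by U12A, with 0.81 to 1.04, and miR-27a and miR-27b by C19U, with 0.78 to 1.41. In these 6 pairs the sign was the same on all 8 days, and the same naïve pool enters each of those days. Of 19 pairs of relatives compared, 16 kept 1 sign, and those that did not were let-7a and miR-98, which differ by G11A and A19U (-3.32 to 0.46), miR-200b and miR-200c (-0.02 to 0.89) and miR-15a and miR-15b (-0.96 to 1.12). miR-15a was not above the empty spots in naïve, so the difference of miR-15a and miR-15b is a lower limit. Several of these families were split in sham kidneys too, against the same naïve pool. The mean log2 sham/naïve was -0.95 for let-7b, -0.69 for let-7a, 0.064 for let-7f and 1.42 for let-7g. It was 0.60 for miR-26a and 2.56 for miR-26b, and 2.08 for miR-10a and 1.34 for miR-10b. These splits were thus not particular to IRI. miR-27a and miR-27b lay closer together in sham, with a log2 IRI/sham of 0.76 for miR-27a and 0.078 for miR-27b. How far the probes of such relatives bind each other's RNA was not tested.

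**Figure D2:**
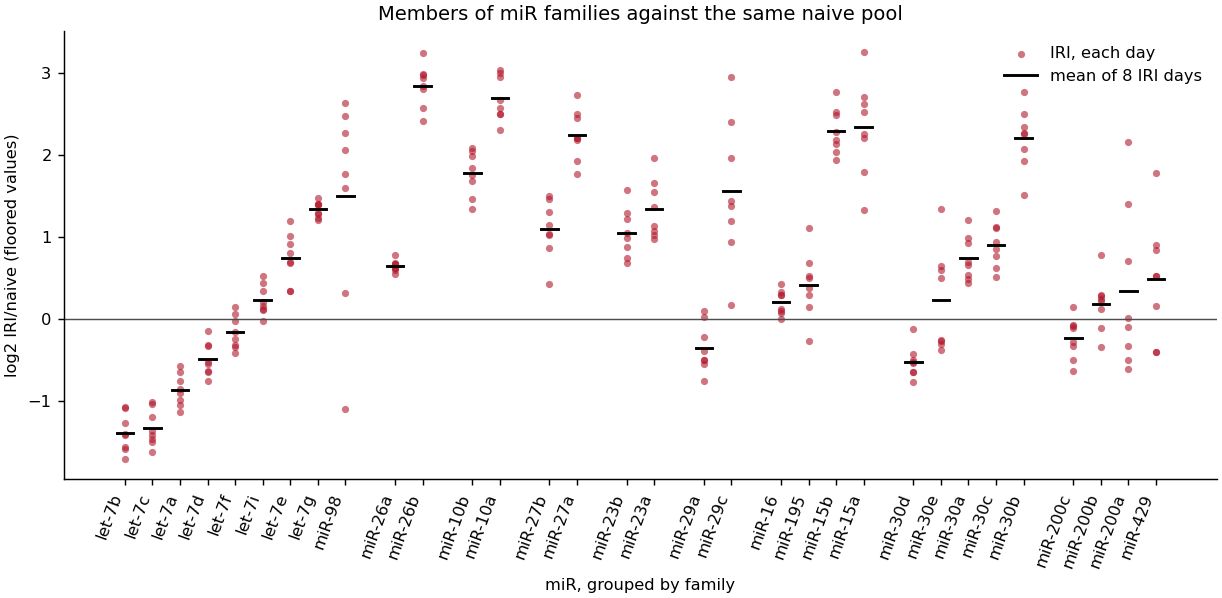
Log2 IRI/naïve (y axis) of the tested members of 9 miR families, each point an IRI day and each bar the mean of 8 days. The let-7 members are ordered from -1.39 to 1.50, and miR-26a at 0.65 and miR-26b at 2.84 have no day in common.

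Base composition moved with these differences. Over the 86 miRs, the share of G and C in the array target and the mean log2 IRI/naïve had a Pearson r of -0.44 (Spearman rho -0.45), and sham/naïve, which shares the naïve array, -0.47. The r of single IRI days was -0.63 on day 1, -0.28 on days 10 and 21 and between those on the other days. For IRI/sham, in which naïve cancels, r was -0.14. These are descriptions over miRs of the same arrays. Among the 30 miRs lowest in G and C (31.8% to 42.9%), the median log2 IRI/naïve was 0.75 and 10 were called higher and 3 lower. Among the 24 highest (52.2% to 85.7%) it was -0.37, with 1 higher and 7 lower. With a straight line on G and C content removed from each day, all 36 calls kept their direction and 27 of them passed, miR-21 among them (2.99). The part of base composition in the results was not tested beyond this.

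**Figure D3:**
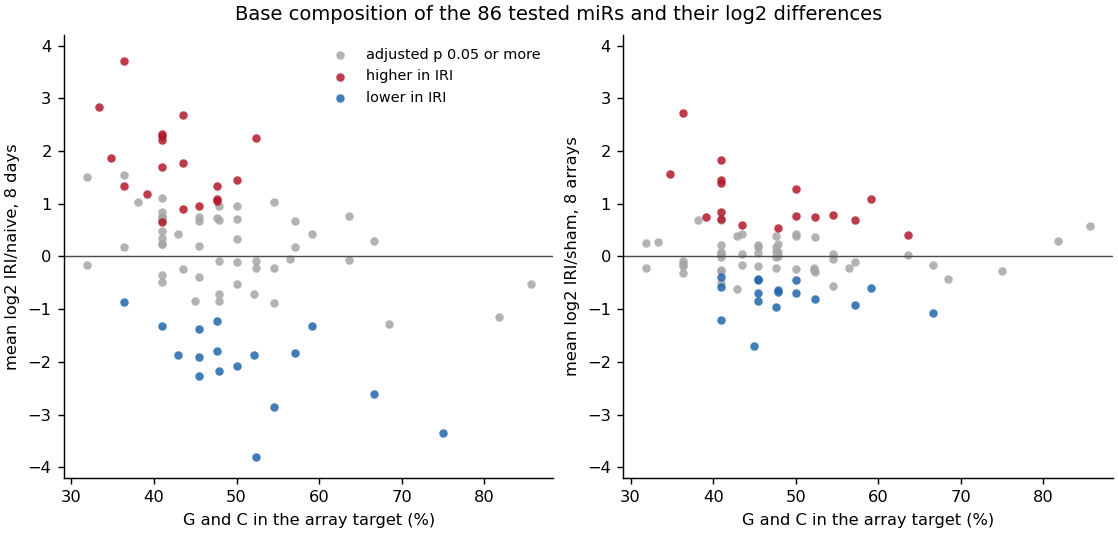
Share of G and C in the array target (x axis, percent) against the mean log2 IRI/naïve (left) and the mean log2 IRI/sham (right) of the 86 tested miRs, coloured by the limma call. The left panel slopes down (r = -0.44), the right one less (r = -0.14).

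The number of miRs far from naïve did not build up over the days. At least 2-fold differences were seen for 47, 39, 37, 45, 37, 49, 46 and 42 of the 86 miRs over the IRI days in order, highest on day 14. In sham kidneys the number was 24 (day 10) to 44 (day 3). The sham kidneys stood far from naïve as well, the SD of the mean log2 ratio over miRs being 1.43 for IRI/naïve, 1.12 for sham/naïve and 0.70 for IRI/sham.

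**Figure D4:**
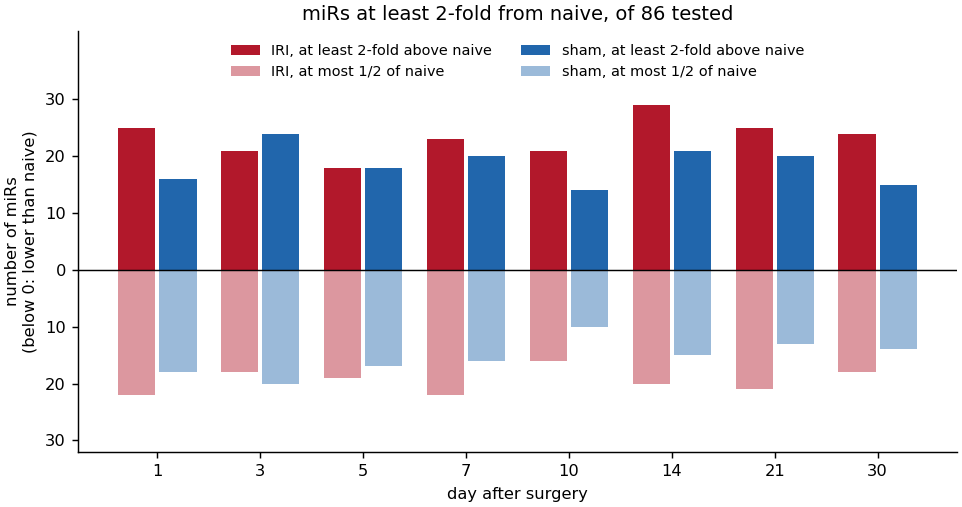
Number of the 86 tested miRs at least 2-fold above (upward bars) or below (downward bars) the naïve pool by day after surgery, for IRI and sham. Day 14 of IRI has the most, 29 above and 20 below, and day 10 of sham the fewest, 14 and 10.

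The direct test of IRI against sham on the same arrays found 17 miRs higher (19.8%) and 17 lower (19.8%) in IRI (limma, adjusted p under 0.05), with dye and surgery not to be told apart. Of the 19 miRs higher than naïve, 7 were also higher than sham (miR-21, miR-10a, miR-15a, miR-15b, miR-27a, miR-155 and miR-20a) and 12 had no call. Of the 17 lower than naïve, 8 were also lower than sham (miR-378, miR-720, miR-22, miR-185, miR-192, let-7b, let-7c and miR-187) and 9 had no call. Both comparisons hold the same 8 IRI samples. miR-187 was at 530 in naïve, at 304 on IRI day 1 and at 89 to 203 later, mostly under the floor, and at 177 to 434 in sham (log2 IRI/sham -0.61, SE 0.19). Its call against naïve was lost with the G and C term (-0.64, adjusted p 0.271). The count of miRs lower than sham fell to 8, 6, 8 and 7 without day 10, 14, 21 or 30.

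The distance from naïve changed along the days for 16 miRs. On log2(day), 8 miRs sloped up (9.3%) and 8 down (9.3%) at an adjusted p under 0.05 (limma, IRI samples alone). The rising ones were miR-199a-3p at 0.45 (SE 0.064) log2 units per doubling of the day, miR-146a at 0.67 (SE 0.12), miR-146b, miR-150, miR-181a, miR-214, miR-689 and miR-709. The falling ones were miR-429 at -0.44 (SE 0.057), miR-200a at -0.56 (SE 0.10), miR-200b, miR-30e, miR-192 at -0.34 (SE 0.079), miR-194 at -0.31 (SE 0.090), miR-29c and miR-805. miR-200a was at 3967 on day 1 and at 631 on day 30 against 889 in naïve, so that its IRI values passed from above naïve to below it. miR-805 was at 11063 on day 1 and at 1928 on day 30 against 8086 in naïve, and was below sham on all 8 arrays by -1.70 (SE 0.34, adjusted p 0.0056). The counts depended on single days, with 3, 3, 4 and 2 rising miRs without day 1, 5, 14 or 21 and 1, 5, 5 and 4 falling ones without day 1, 5, 21 or 30.

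**Figure D5:**
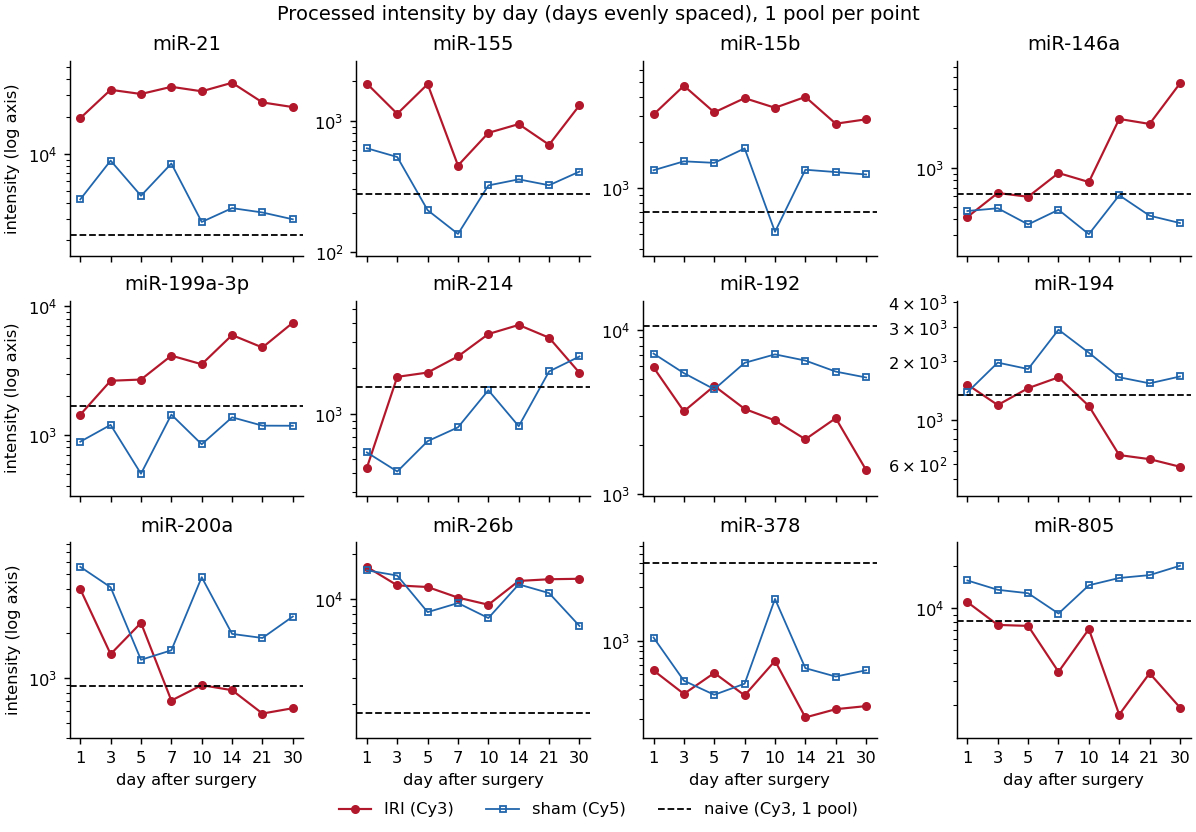
Processed intensity (log axis) of 12 miRs by day after surgery, with IRI as filled points, sham as open squares and the single naïve pool as a dashed line. miR-146a and miR-199a-3p of IRI end highest at day 30, at 4449 and 7465, and miR-192 ends lowest, at 1406 against 10442 in naïve.

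The widest range over the days belonged to miR-709, which was at 42070 in naïve, 1109 on IRI day 1 and 18378 to 39266 on the other 7 days. Sham day 1, on the same array, was at 17677. miR-98 was at 1302 in naïve, 609 on day 10 and 1616 to 8064 on the others, and sham followed it with 328 on day 10. miR-689 was at 1100 in naïve, 109 on day 1 and 431 to 2176 on the others. None of the 3 passed against naïve.

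Among the remaining pairs of relatives, miR-16 was at 6237 in naïve and at 6226 to 8383 in IRI (log2 0.20, adjusted p 0.55) and was not called, whereas miR-15a and miR-15b, whose seed it shares, were. With median scaling of the scanner signals miR-16 was called higher (0.96, adjusted p 0.025) and miR-15a was not (1.61, adjusted p 0.063). miR-29a was at 4527 and at 2691 to 4840 (log2 -0.35), and miR-29c, at 194 and at 226 to 1539, was not called (adjusted p 0.15). miR-125a-5p was higher in IRI, at 3447 to 7090 against 1918 (log2 1.44, SE 0.37, adjusted p 0.010), while miR-125b-5p, at 2632 to 5637 against 3655, was not called. The call of miR-125a-5p was lost with all 17 samples in the fit and with no filter on low values. miR-200c was at 2493 in naïve and at 1615 to 2761 in IRI.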

How the data were processed

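Kidney RNA was read on 9 two-tag miR arrays, of which the 8 with IRI and sham pools held both dyes and the naïve array Cy3 alone. The authors deposited a linear processed intensity for every miR in every sample, and how it was computed from the scans is not stated in the sources used. They also deposited scanner values per spot (other units, linear, before background correction). Over miRs, processed values and scanner signal correlated at 0.98 or more in each Cy3 channel. On the day 5 array the header names the samples only as A and B, so its channels were taken by dye as on the other arrays and checked in the same way. The number of arrays limits the precision.

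Processed values were floored at 200, as in the study's methods, and put on the log2 scale. miRs with a mean of at least 200 over the 9 samples were tested with limma (version 3.58.1, R 4.3.3), with the 8 IRI days as replicates against the 1 naïve pool and Benjamini-Hochberg adjustment over the 86 miRs. IRI and sham were compared by the log2 ratio within each array, since the labels put both surgeries of a day on 1 array, which makes the array a block. The correlation of their deviations on an array was -0.21 to 0.72. Slopes were fitted on log2(day) over IRI samples. A miR not more than 3 median absolute deviations above the 250 empty spots was treated as not above them. The scripts were tested on simulated data.

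The miRs named are, among those tested, the 8 highest and 8 lowest calls, the 3 of widest range over days, the 9 that the study names and the 2 most abundant members of each of 19 lists (others are given where a count was small). The members and lists were chosen with earlier results of these data known. Alternatives were scanner values under several normalizations, other floors and filters, another variance model, each day left out, no block and day in place of log2(day). A G and C term and a fit of all 17 samples were chosen after seeing the data.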

Additional observations from a re-analysis of the deposited data

Results flagged for a closer look

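Of 100 groups of 8 samples looked at for a sample far from the others, 7 had one. Chance gives about 1 in 20 for independent, normally spread groups, which these, on shared arrays and partly at the floor, are not. miR-709 on IRI day 1 had a log2 ratio to naïve of -5.25, with the next at -1.19. miR-214 on IRI day 1 was at -1.78, with the next at 0.23. miR-187 on IRI day 1 was at -0.80, the other days being at or near the floor. miR-320 on IRI day 10 was at -1.93, with the next at -2.72. On the sham side, miR-185 was at -0.028 and miR-15b at -0.42 on day 10, and miR-125b-5p was at 0.63 on day 5.

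For 22 of the 50 named miRs, against 39.5% of all miRs tested, the distance of IRI from naïve differed from that of sham. The test was limma's on the ratio of each array, in which naïve cancels and dye and surgery cannot be told apart. All 9 miRs of the study's list are among the 22. The paper reports those as different between IRI and sham at every time analyzed, so this count is not independent of these data. IRI was farther up by 2.72 log2 units for miR-21, 1.83 for miR-199a-3p, 1.56 for miR-155, 1.45 for miR-15b, 1.39 for miR-146a, 1.28 for miR-25, 1.09 for miR-214, 0.85 for miR-15a, 0.78 for miR-150, 0.76 for miR-27a, 0.76 for miR-20a, 0.68 for miR-92a and 0.60 for miR-10a. The difference was below 0 for miR-805 (-1.70), miR-720 (-1.08), miR-192 (-0.95), miR-194 (-0.84), miR-378 (-0.80), miR-22 (-0.70), miR-185 (-0.70), miR-187 (-0.61) and let-7c (-0.39).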

How the results depend on the processing

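The 36 miRs called against naïve kept their direction under every alternative on the deposited values of all days in which they were tested (35 of them with the filter on empty spots), and 18 to 35 of them still passed, fewest with no filter on low values (9 higher and 10 lower of 569 tested). From scanner values more miRs were tested, and 27 lower calls were made of 141 with quantile normalization of Cy3 and 40 of 114 with median scaling. Of the 36 calls, 30, 29, 28 and 30 held with quantile normalization, loess and quantile, median scaling and the median of the spots. Besides let-7a and miR-26a, let-7b, let-7g, miR-23b and miR-30c were lost in all of these except median scaling, and let-7c after loess and quantile. Median scaling lost miR-143, miR-155, miR-15a, miR-191, miR-192, miR-20a, miR-26a and miR-690. The 11 calls that held under every alternative and with each day left out were miR-21, miR-26b, miR-10a, miR-10b, miR-15b, miR-27a, miR-30b, miR-378, miR-705, miR-320 and miR-140*. The count at least 2-fold above naïve on every day was 17, 14 and 19 with quantile normalization, median scaling and the median of the spots, and that below was 24 with median scaling. The slope counts moved to 4 falling miRs with day in place of log2(day) and to 5 rising ones from scanner values. Without the array as a block, which the labels pair, 14 miRs were higher and 15 lower in IRI than in sham.

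Of the 86 miRs, 8, 8, 18, 9, 12 and 3 had another sign than reported with quantile normalization, loess and quantile, median scaling, the median of the spots, the G and C term and a floor of 400. Among the named miRs these were, in log2 IRI/naïve, let-7a (0.17 and 0.18), miR-16 (-0.17 and -0.11), miR-200b (-0.20 and -0.26) and miR-26a (-0.14 and -0.15) with quantile normalization and the median of the spots, and miR-125b-5p with the latter (0.20). With loess and quantile normalization they were miR-125b-5p (0.065), miR-16 (-0.14), miR-200b (-0.10) and miR-26a (-0.028), and with median scaling miR-125b-5p (0.80), miR-145 (0.22), miR-200c (0.55), miR-221 (-0.078) and miR-29a (0.82). With the G and C term they were miR-125b-5p (0.023), miR-200b (-0.54), miR-222 (0.18) and miR-689 (1.83), and with a floor of 400 miR-181a (0.13), which also reached 0.011 with a day left out (from -0.21). Of these only let-7a and miR-26a had been called, and the cause was not tested.

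With 1 day left out, 12 to 18 miRs were higher and 15 to 18 lower than naïve (12 without day 14), 9 to 11 and 13 to 15 by the 2-fold rule, 12 to 22 and 6 to 21 against sham, and 2 to 8 rising and 1 to 8 falling. Leaving out a day ended 9 of the 36 calls, those of miR-26a (day 3, 7, 14, 21 or 30), miR-27b and miR-30c (3, 7, 10, 14, 21 or 30), miR-155 (1, 3, 5, 10, 14 or 30), miR-192 and miR-126-3p (3, 7, 10, 14 or 21), miR-20a (3, 7 or 14), miR-23b (7 or 14) and let-7a (14), and miR-221 passed without day 10, at 1.03. The dim naïve array, at 208.7 mean signal, limits all ratios to it.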

Other observations

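The arrays also carried 5 probes for the ribosomal 5S RNA, a longer RNA. In the processed values each was higher in naïve (20664 to 266356) than in every IRI sample, by 4.09-fold over the highest IRI value for the least different probe and by 70.29-fold over the lowest IRI value for the most different one.

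miR-122, the main miR of liver, was at 3571 in the sham sample of day 30 and at 16 to 36 in the other 16 samples, IRI and naïve included.

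Of the miRs lower than naïve, miR-191 (7884 in naïve, 1661 to 2818 in IRI) and miR-140* (825 and 132 to 343) were lower on all 8 days without a call against sham (log2 IRI/sham -0.25, SE 0.15, and -0.095, SE 0.13), and miR-196a, from a Hox gene cluster, was higher (835 and 1379 to 4691) with a log2 IRI/sham of 0.04 (SE 0.18). The call of miR-196a against naïve was lost with the G and C term (1.26, adjusted p 0.0526), with the filter on empty spots and with no filter. miR-455 was not called against naïve (log2 0.17) and lay below sham on all 8 arrays (-0.92, SE 0.20, adjusted p 0.0072).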
